A study of Homo sapiens with 4 samples.

Results

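KGN is a human granulosa-like tumour cell line that keeps the follicle-stimulating hormone receptor and aromatase, and is used as a model of estrogen-making cells of the ovarian follicle. RNA was sequenced from 4 KGN libraries. LV-CON replicate 1 and LV-CON replicate 2 came from cells that carried a control lentivirus, and LV-TOX3 replicate 1 and LV-TOX3 replicate 2 from cells that carried a lentivirus for TOX3, an HMG-box protein. Both viruses also gave resistance to puromycin, with which all the cells were selected over a pair of passages, and all were grown in DMEM/F12 with fetal bovine serum. The comparison described here sets the 2 libraries numbered 2 against the 2 libraries numbered 1, so that each side holds 1 library of each virus, and asks which genes differed in the same direction in the LV-CON pair and in the LV-TOX3 pair. The number is a replicate number in the labels. They do not call it a batch, a day or a passage, and the sources call the libraries independent duplicates without saying whether they were separate cultures. The p-values given below therefore measure only how these 4 libraries spread, which may be technical. In the fits without a term for the virus, that spread also includes the difference between LV-TOX3 and LV-CON within each number. The cells were selected in bulk as far as the sources say, with no clone named.

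The table held 33880 genes, of which 14184 had a mean of at least 0.5 RPKM (reads scaled to gene length and library size) over the 4 libraries and were tested. Library depth ran from 16403371 to 17858746 reads. Mitochondrial transcripts took 4.71% to 4.88% of the reads in genes with the sides overlapping. The 100 most abundant genes took 22.1% and 22.7% of the reads in number 1 and 21.95% and 21.97% in number 2, so the sides did not overlap there, and their part in the results was not tested. The mitochondrial ribosomal RNA MT-RNR1 was also lower in number 2, at 1235 and 1047 RPKM in the LV-CON pair and at 1249 and 968 RPKM in the LV-TOX3 pair, and was called at the wider thresholds given below, while MT-RNR2 had pair differences of -0.05 and -0.05. TOX3 was at 0 RPKM in both LV-CON libraries, at 18.1 RPKM in LV-TOX3 replicate 1 and at 17.3 RPKM in LV-TOX3 replicate 2, so both libraries of each virus matched their label. The granulosa transcription factor FOXL2 was at 10.46 to 10.99 RPKM in every library. Markers of blood and vessel cells were low: the 6 immune markers in the table summed to 0.575 to 0.781 RPKM a library, with CD68 and LYZ among those at 0 throughout, and the 8 endothelial markers to 3.01 to 3.69 RPKM. The 9 epithelial markers summed to 5.65 to 8.49 RPKM, the 5 theca markers in the table to 14.7 to 15.8 RPKM and the 9 fibroblast markers, which mesenchymal cell lines also express, to 1641 to 1737 RPKM, with the numbers overlapping in the sums of endothelial, epithelial and fibroblast markers. The immune sum was higher in both libraries of number 2 and the theca sum lower in both, and their part in the results was not tested.

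Several of the programs described here are known to follow the state of a culture. Fresh serum, wounding or cytokines induce the immediate early genes within minutes and then the chemokines that the transcription factor NF-κB controls, double-stranded RNA and interferons induce a further set through STAT and IRF factors, and dividing cells accumulate the transcripts of spindle and kinetochore proteins in G2. In granulosa cells the same kinase cascades, acting downstream of gonadotropins and growth factors, take part in the control of aromatase. The sources used here give none of these inputs by library, and what set the libraries of number 2 apart from those of number 1 was not tested.

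All differences are on the scale log2(RPKM + 0.1), number 2 minus number 1, so that a negative value means lower in number 2. This scale understates the change of genes near 0. By limma over all 14184 genes, with no term for the virus, no gene passed a Benjamini-Hochberg adjusted p of 0.05 (0%), and the smallest adjusted p was 0.125. At an unadjusted p under 0.05, 726 genes were higher and 633 lower in number 2. At the wider thresholds, an unadjusted p under 0.05 with a log2 difference over 0.3 in size, 523 genes were higher (3.69% of those tested) and 476 were lower (3.36%), together 999 or 7.04%. The same 4 libraries split the other way, LV-TOX3 against LV-CON, gave 698 genes at the same thresholds, or 4.92%, and 1 gene past the adjusted threshold. With a term for the virus in the limma model, 7 genes passed for the number, which is 0.0494% of those tested. Applied to the reads recovered from the RPKM values, limma-voom called 29 genes without that term (0.204%) and 803 with it (5.66%), 372 higher and 431 lower. The count past an adjusted p thus ran from 0 to 803 with the model, and the text below gives the values in each library first.

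The 7 genes that passed with a term for the virus were EGR1, CXCL2, PTX3 and CXCL8, all lower in number 2, and MEGF6, MIR25 and the long noncoding RNA AC245041.1, all higher, each at an adjusted p of 0.0317 by limma. Of the 29 genes that limma-voom called without the term, 10 were higher and 19 lower in number 2, and 21 had a mean of at least 5 RPKM. All 29 were also called by limma-voom with the term.

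The differences of the pairs, which share no library, went the same way more often the more abundant the genes were. Both pairs were higher in number 2 for 34.3% of the genes tested and both lower for 27.5%. Over the 14184 genes, Pearson's r between the differences of the LV-CON pair and those of the LV-TOX3 pair was 0.19 and Spearman's rho 0.30, as a description across genes, which are not independent replicates. Among the 7048 genes that averaged 5 RPKM or more, r was 0.49 and 64.9% had the same direction, and among the 2037 genes of at least 20 RPKM, r was 0.55 and 67.8% had it. For the other split of the libraries, the virus difference within number 1 and that within number 2 had an r of 0.49 over the same 7048 genes. The spread was also alike. The SD across genes of at least 5 RPKM was 0.21 in the LV-CON pair and 0.22 in the LV-TOX3 pair, against 0.21 and 0.22 for the virus difference within number 1 and within number 2. The median over all genes tested was 0.01 in the LV-CON pair and 0.03 in the LV-TOX3 pair, and these are the levels against which the medians of the gene lists below can be read.

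**Figure D1:**
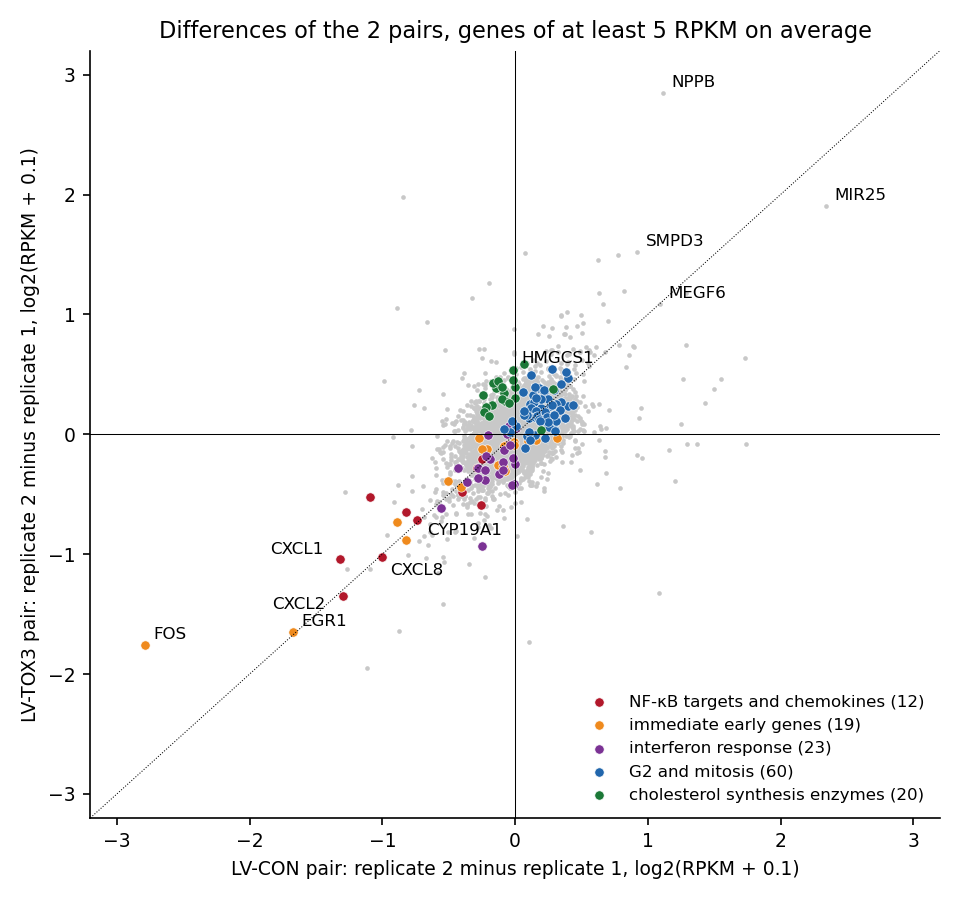
Each point is a gene that averaged 5 RPKM or more; the x axis is the difference between LV-CON replicate 2 and LV-CON replicate 1 and the y axis that between LV-TOX3 replicate 2 and LV-TOX3 replicate 1, both on log2(RPKM + 0.1), with 5 gene lists in colour and their plotted members counted in the legend. FOS, EGR1 and the CXCL chemokines lie at the lower left, MIR25, NPPB, SMPD3 and MEGF6 at the upper right, and the cholesterol synthesis enzymes, apart from GGPS1, above the diagonal.

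The shared difference of a gene was taken as the smaller of its 2 pair differences where both had the same sign. It reached 0.5 in size for 341 genes higher in number 2 (2.4%) and for 263 lower (1.85%). Many of these were short or scarce. Of 138 microRNA loci tested, with a median of 1.75 reads a library, 30 were in the higher set and 11 in the lower, whereas of 11377 protein-coding genes, with a median of 585.5 reads, 55 were in the higher set and 120 in the lower. Among genes of at least 5 RPKM, 31 were higher, 15 of them protein-coding, and 45 were lower, 39 of them protein-coding. Just inside the limit lay PDGFB, with 0.51 and 0.50, and just outside it TIMP1, with -0.50 and -0.56, and SLC6A6, with -0.50 and -0.53 in the LV-CON and LV-TOX3 pairs. The 15 largest shared differences at 5 RPKM or more comprised 14 protein-coding genes among the lower genes, and 6 among the higher.

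The chemokines and other NF-κB targets stood lowest as a group. NF-κB is held in the cytoplasm by its inhibitors until a cytokine or stress signal frees it, after which it induces neutrophil-attracting chemokines, interleukin 6 and, in a feedback loop, its own inhibitors. The letters of its site are shown here because the chemokine genes carry it close to their start sites, in the stretch that sets how they answer such signals. The stretches are from RefSeq promoters (GRCh38.p14), read on the strand of each gene from 5′ to 3′, and capitals mark matches to GGNNTTTCC on either strand.
CXCL1, chr4:73869305-73869383, + strand: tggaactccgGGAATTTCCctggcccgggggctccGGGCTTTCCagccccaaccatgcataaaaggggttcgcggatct
CXCL2, chr4:74099205-74099283, - strand: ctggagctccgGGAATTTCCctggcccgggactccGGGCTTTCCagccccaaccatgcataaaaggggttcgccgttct
CXCL3, chr4:74038699-74038777, - strand: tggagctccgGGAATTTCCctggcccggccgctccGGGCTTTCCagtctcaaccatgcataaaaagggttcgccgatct
CXCL8, chr4:73740443-73740521, + strand: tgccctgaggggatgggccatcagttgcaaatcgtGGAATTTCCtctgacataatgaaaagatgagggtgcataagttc
IL6, chr7:22727093-22727171, + strand: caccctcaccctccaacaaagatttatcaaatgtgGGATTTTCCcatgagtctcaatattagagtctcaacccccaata
TNFAIP3, chr6:137867169-137867247, + strand: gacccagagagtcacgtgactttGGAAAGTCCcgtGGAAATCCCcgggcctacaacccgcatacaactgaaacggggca

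In CXCL1, CXCL2 and CXCL3, which lie in 1 cluster on chromosome 4, the stretch held 2 matches, and the match nearer to the start site ended 44 bases before it in all of them. In CXCL8 the match ended 82 bases before the start site and in IL6 63 bases before it. The motif was found in the promoter window (250 bases before to 50 after the start) of 12 of the 15 tested members of the NF-κB list that had a window, and in 7.61% of the 27305 genes with one. A match is a description of the letters and was not tested as a site.

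Of the 26 listed NF-κB targets and chemokines, 19 were tested. In 16 of them both pairs were lower in number 2 (27.5% over all genes) and in 1 both were higher, and 9 were called lower at the wider thresholds (3.36% over all genes) and none higher. The median difference was -0.51 in the LV-CON pair and -0.52 in the LV-TOX3 pair. CXCL8, or interleukin 8, was at 34.6 RPKM in LV-CON replicate 1 and 17.2 in LV-CON replicate 2, and at 43.7 in LV-TOX3 replicate 1 and 21.5 in LV-TOX3 replicate 2. Both libraries of number 1 thus lay above both of number 2, by 2.02-fold on the means, with a log2 difference of -1.01 ± 0.16 (SE, 2 libraries a side, limma adjusted p = 0.225). CXCL1 was at 23.4 and 9.33 RPKM in the LV-CON pair and at 23.3 and 11.3 RPKM in the LV-TOX3 pair, numbers 1 and 2 in that order. CXCL2 was at 12.4 and 4.96 RPKM and at 10.2 and 3.94 RPKM. For both, the libraries of number 2 lay below those of number 1 with no overlap. The log2 difference between LV-TOX3 and LV-CON was 0.13 for CXCL1 and -0.30 for CXCL2, and that between the numbers -1.18 ± 0.11 and -1.33 ± 0.15 (limma adjusted p = 0.171 for both).

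The cytokine gene IL6 followed the chemokines, at 5.01 and 2.49 RPKM in the LV-CON pair and 6.58 and 2.86 RPKM in the LV-TOX3 pair, a log2 difference of -1.08 ± 0.16. TNFAIP3 encodes A20, an enzyme that switches NF-κB signalling off. It was at 11.3 and 6.73 RPKM in the LV-CON pair and at 11.1 and 6.71 RPKM in the LV-TOX3 pair, values that hardly differed between the viruses. SOD2, the mitochondrial superoxide dismutase and an NF-κB target of many cells, was at 20.95 and 11.8 RPKM and at 20.9 and 13.3 RPKM. The inhibitor NFKBIA stood closer to its level in number 1, with pair differences of -0.25 and -0.20. CXCL3, chosen after its values were seen because its promoter resembles those of CXCL1 and CXCL2, was at 8.91 and 4.11 RPKM and at 7.07 and 4.89 RPKM. PTX3, a secreted pattern-recognition protein that cumulus and granulosa cells also make for the matrix around the oocyte, was at 23.6 and 10.997 RPKM and at 27.3 and 12.4 RPKM, and LY96, the partner of Toll-like receptor 4, at 12.3 and 6.27 RPKM and at 10.3 and 5.72 RPKM.

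**Figure D2:**
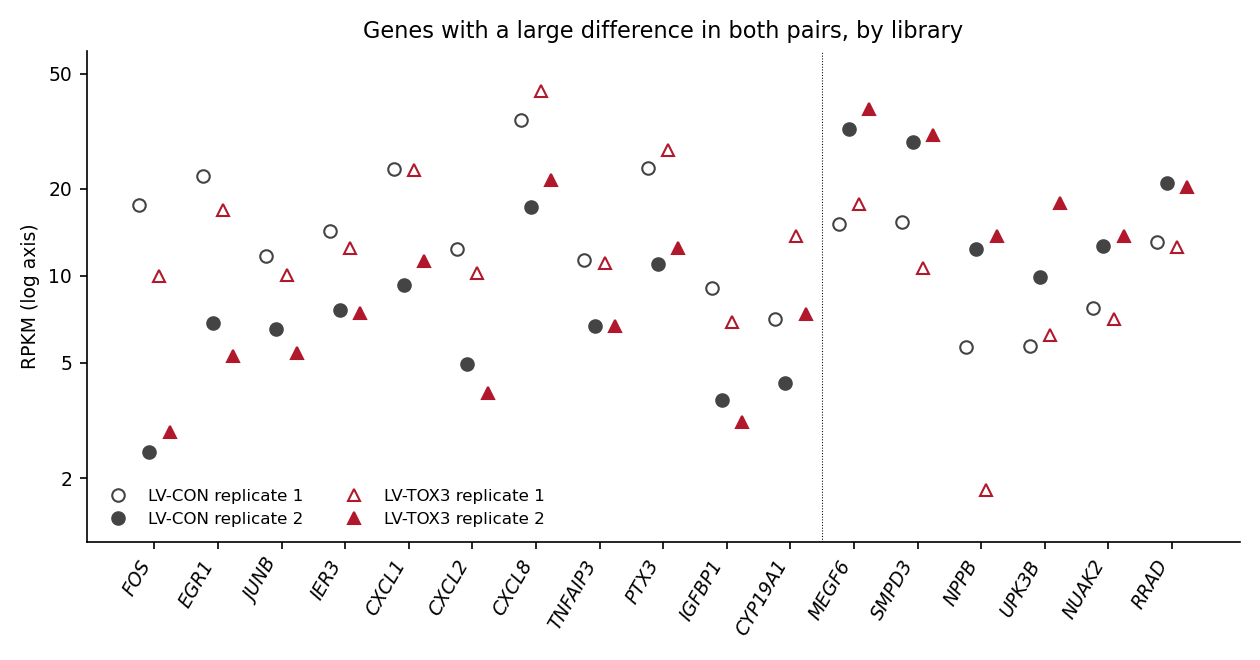
RPKM on a log axis for genes with a large difference in both pairs, 1 point per library, open for replicate 1 and filled for replicate 2, circles for LV-CON and triangles for LV-TOX3. Left of the dotted line the filled points lie below the open points of the same virus, as for FOS (17.6 and 2.46 RPKM in LV-CON), and right of it above them, as for MEGF6 (15.1 and 32.3 RPKM); only CYP19A1 overlapped between the numbers.

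Immediate early genes are transcribed without new protein synthesis when growth factors activate ERK and the serum response factor SRF. Of 30 listed, 24 were tested. Of these, 18 were lower in both pairs (27.5% over all genes) and 1 was higher in both (34.3% over all genes). At the wider thresholds 8 were called lower (3.36% over all genes) and none higher. Their median was -0.17 in the LV-CON pair and -0.26 in the LV-TOX3 pair. FOS, a subunit of the AP-1 transcription factor at chr14:75278826-75282230 (GRCh38), had the largest shared difference of all genes of at least 5 RPKM that were lower in number 2. It was at 17.6 RPKM in LV-CON replicate 1, 2.46 in LV-CON replicate 2, 9.97 in LV-TOX3 replicate 1 and 2.88 in LV-TOX3 replicate 2, or 1011, 142, 562 and 153 reads. The log2 difference was -2.27 ± 0.28 (limma adjusted p = 0.172, 0.0888 with a term for the virus, 0.0323 by limma-voom).

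EGR1, a zinc finger transcription factor, was at 22.1 and 6.89 RPKM in the LV-CON pair and at 16.8 and 5.28 RPKM in the LV-TOX3 pair, 3.2-fold lower in number 2 on the means, with a log2 difference of -1.66 ± 0.19 (limma adjusted p = 0.171, 0.0317 with a term for the virus). NAB2, a repressor that EGR1 itself induces, was at 7.99 and 5.08 RPKM and at 8.32 and 4.90 RPKM. The EGR1 promoter is printed because it carries the SRF site, or CArG box, that a serum signal reaches. Capitals mark its 2 matches, of which the nearer ended 73 bases before the start site.
EGR1, chr5:138465361-138465440, + strand: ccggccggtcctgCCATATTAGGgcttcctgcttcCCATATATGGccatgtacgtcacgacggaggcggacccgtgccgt

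The CArG box was in the window of 2 of the 17 tested members with one, EGR1 and SRF, and in 1.6% of all genes with a window. JUNB, a further AP-1 subunit, was at 11.7 and 6.55 RPKM and at 10.1 and 5.43 RPKM, and IER3, an early gene that NF-κB also induces, at 14.2 and 7.64 RPKM and at 12.5 and 7.46 RPKM. DUSP6, the phosphatase that ends ERK signalling and whose transcript is often read as a measure of it, was at 2.84 and 1.46 RPKM and at 3.35 and 1.66 RPKM. Both numbers separated fully in each of these. Other members stayed near 0: JUN had pair differences of 0.10 and -0.05, MYC of -0.08 and -0.10, and ATF3 of -0.01 and -0.06. Among the 15 leading lower genes were also PHLDA1, an ERK-responsive protein, at 7.43 and 4.21 RPKM and at 7.40 and 3.63 RPKM, and IGFBP1, a secreted binder of insulin-like growth factors, at 9.10 and 3.73 RPKM and at 6.95 and 3.13 RPKM.

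Genes that interferons induce were lower in number 2 by less, but in most members. Of 36 tested, 30 were lower in both pairs (27.5% over all genes) and 1 was higher in both (34.3% over all genes). At the wider thresholds 11 were called lower (3.36% over all genes) and none higher. In 26 both libraries of number 2 lay below both of number 1, which held for 17.8% of all genes tested (the reverse held for 23.1%). Their median was -0.20 in the LV-CON pair and -0.33 in the LV-TOX3 pair. IFIT3, which restrains viral RNA translation with its partners, was at 11.7 and 7.91 RPKM in the LV-CON pair and at 11.4 and 7.44 RPKM in the LV-TOX3 pair (log2 difference -0.58, limma adjusted p = 0.196). STAT2, a subunit of the factor that type I interferon activates, was at 21.7 and 17.9 RPKM and at 21.9 and 16.9 RPKM. The membrane protein IFITM3, the most abundant of the named members, was at 188 and 161 RPKM and at 186 and 151 RPKM. ISG15 was nearly level in the LV-CON pair and lower in the LV-TOX3 pair, at 44.4 and 44.2 RPKM and at 46.3 and 34.8 RPKM.

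Class I antigen presentation, which interferon and NF-κB both raise, went with them. Of 12 genes tested 10 were lower in both pairs (27.5% over all genes) and 4 were called lower at the wider thresholds (3.36% over all genes), with medians of -0.15 and -0.29. HLA-E was at 98.4 and 67.5 RPKM in the LV-CON pair and at 90.4 and 68.1 RPKM in the LV-TOX3 pair. B2M, the light chain that all class I molecules share, was at 421 and 350 RPKM and at 433 and 341 RPKM, and HLA-B at 180 and 155 RPKM and at 211 and 160 RPKM. Reads of the HLA genes can be split among near-identical copies in the counting, so the values of HLA-B and HLA-E are less certain than that of B2M. The interferon-stimulated response element was searched as GAAANNGAA on both strands, because it is the site through which STAT and IRF factors reach these genes. It was in the windows of 19 of 27 interferon-response members and 7 of 9 class I members with a window, against 9.86% of all genes. Capitals mark the matches, and where matches overlap only the first is marked.
IFIT3, chr10:89327841-89327919, + strand: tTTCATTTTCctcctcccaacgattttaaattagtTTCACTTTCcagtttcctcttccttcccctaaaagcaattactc
IFITM3, chr11:320861-320930, - strand: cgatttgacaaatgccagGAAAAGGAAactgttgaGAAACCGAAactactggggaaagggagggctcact
B2M, chr15:44711338-44711416, + strand: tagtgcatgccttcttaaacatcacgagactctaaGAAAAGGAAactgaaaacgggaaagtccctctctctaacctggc

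In IFIT3 both marked matches lay on the strand opposite to the gene, and in IFITM3 and B2M all lay on the strand of the gene. In B2M the marked match overlaps a further one, GAAACTGAA, whose last letters are in lower case.

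**Figure D3:**
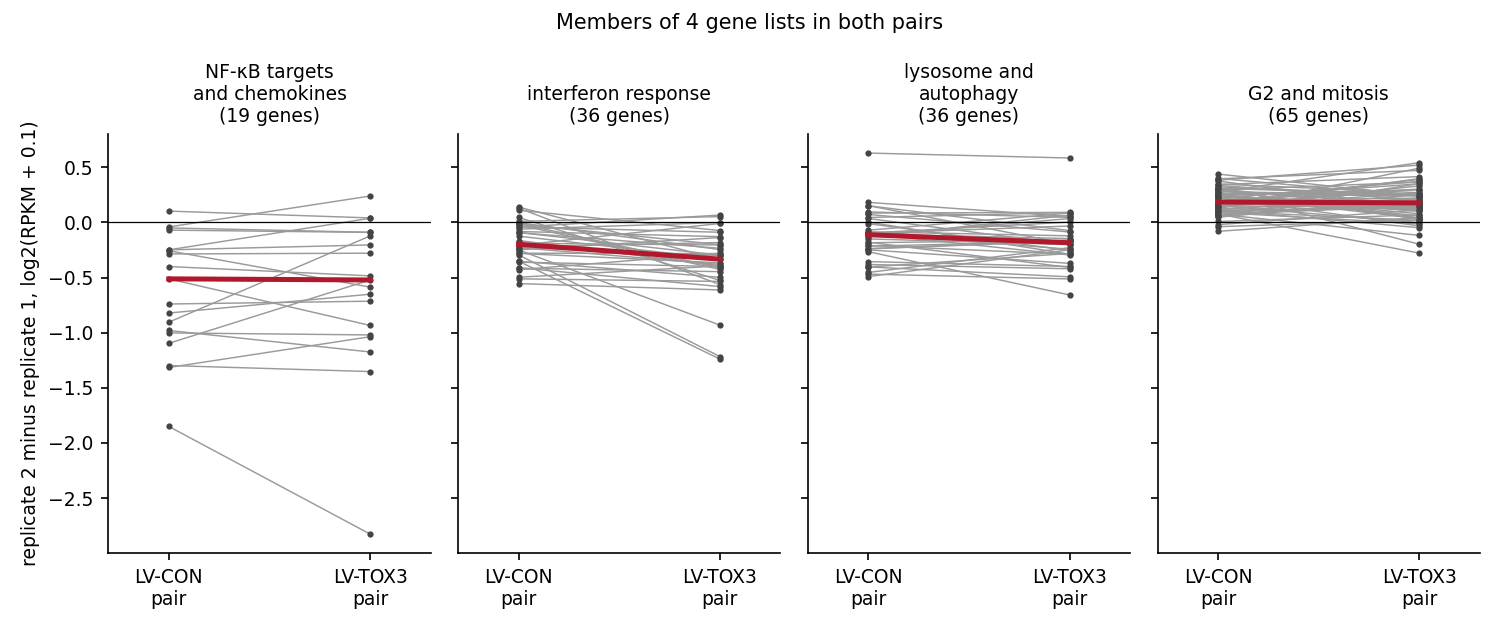
Each grey line joins the difference of 1 gene in the LV-CON pair with that in the LV-TOX3 pair, replicate 2 minus replicate 1 on log2(RPKM + 0.1), for 4 gene lists, and the red line joins the medians. Nearly all lines of the NF-κB and interferon lists lie below 0 at both ends, with medians of -0.51 and -0.52 and of -0.20 and -0.33, and most of the 65 lines of G2 and mitosis lie above it, with medians of 0.19 and 0.18; the lysosome line that stands high at both ends is TFEB.

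Lysosomal and autophagy genes were also mostly lower, with medians of -0.11 and -0.19. Of 36 tested, 22 were lower in both pairs (27.5% over all genes) and 5 higher in both (34.3% over all genes). At the wider thresholds 7 were called lower (19.4%, against 3.36% over all genes) and 1 higher (2.78%, against 3.69%). SQSTM1, or p62, which links ubiquitinated cargo to autophagosomes, was at 110 and 84.2 RPKM in the LV-CON pair and at 108 and 80.9 RPKM in the LV-TOX3 pair. The membrane protein CD63 was at 258 and 195 RPKM and at 239 and 170 RPKM, and the protease CTSB at 103 and 80.1 RPKM and at 98.4 and 74.6 RPKM. The member called higher was TFEB, the transcription factor that is known to induce lysosomal genes. It was at 2.70 and 4.23 RPKM in the LV-CON pair and at 2.67 and 4.06 RPKM in the LV-TOX3 pair, against the direction of most genes of the list. The E-box CACGTG, whose letters the factor reads, was in the windows of 9 of 24 members and 8.77% of all genes.

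In the hypoxia list 18 of 23 genes were lower in both pairs (27.5% over all genes). Another 4 were higher in both (34.3% over all genes), and the medians were -0.17 and -0.20. At the wider thresholds 3 were called lower (3.36% over all genes) and 1 higher (3.69% over all genes). The share called higher was thus near that over all genes. NDRG1 was at 8.34 and 5.96 RPKM and at 7.50 and 5.70 RPKM. CA9, a carbonic anhydrase of the cell surface that is among the most used markers of hypoxia, went the other way, at 2.97 and 5.10 RPKM in the LV-CON pair and at 3.27 and 8.14 RPKM in the LV-TOX3 pair. The list of FOXO targets and genes of low growth factor supply had 13 of 19 genes lower in both pairs (27.5% over all genes). In it 2 were called lower (10.5%, against 3.36% over all genes). Among its lower genes were BCL6, at 5.97 and 4.78 RPKM and at 5.99 and 4.23 RPKM, and KLF6, at 41.9 and 31.6 RPKM and at 35.6 and 26.2 RPKM.

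Extracellular proteases and their inhibitors split. Of 29 tested, 5 were called lower (17.2%, against 3.36% over all genes) and 3 higher (10.3%, against 3.69%) at the wider thresholds. TIMP1, an inhibitor of metalloproteases, was at 79.4 and 56.2 RPKM in the LV-CON pair and at 76.7 and 52.1 RPKM in the LV-TOX3 pair. MMP14, a membrane-bound collagenase, was at 39.4 and 29.7 RPKM and at 36.1 and 25.3 RPKM, and the urokinase receptor PLAUR at 6.37 and 4.28 RPKM and at 5.50 and 2.89 RPKM. MMP24 and ADAMTS2 were higher in both pairs, ADAMTS2 at 3.60 and 4.47 RPKM and at 3.44 and 4.56 RPKM. The calcification inhibitor MGP was among the 15 leading lower genes, at 16.8 and 9.08 RPKM and at 29.7 and 9.45 RPKM, with its highest value in LV-TOX3 replicate 1. The list of TGF-β and SMAD targets was also divided. Of its 22 tested members, 4 were called higher (18.2%, against 3.69% over all genes) and 3 lower (13.6%, against 3.36%). The ligand TGFB2 was at 6.68 and 8.50 RPKM and at 6.41 and 8.55 RPKM, whereas the clock and stress repressor BHLHE40 was at 63.7 and 49.9 RPKM and at 64.0 and 48.2 RPKM.

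Within the pairs, transcripts of G2 and mitosis were higher in number 2, by little in each gene and in most of them. Of 65 tested, 55 were higher in both pairs (34.3% over all genes) and none was lower in both. Only 2, UBE2S and ASPM, passed the wider thresholds (3.08%, against 3.69% called higher over all genes). In 13 of the 65 both libraries of number 2 lay above both of number 1, which held for 23.1% of all genes tested. The medians were 0.19 in the LV-CON pair and 0.18 in the LV-TOX3 pair, against 0.01 and 0.03 over all genes. UBE2S, the enzyme that extends ubiquitin chains for the anaphase-promoting complex, was at 31.6 and 41.3 RPKM in the LV-CON pair and at 27.8 and 39.9 RPKM in the LV-TOX3 pair. ASPM, a spindle pole protein, was at 13.2 and 16.2 RPKM and at 11.4 and 14.7 RPKM, and the kinesin KIF23, which builds the midzone of the spindle, at 14.1 and 17.5 RPKM and at 12.7 and 15.1 RPKM. The same list had a median difference of -0.35 between LV-TOX3 and LV-CON, so in the mitotic genes the difference of the number stood beside a larger one of the virus.

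The cell cycle homology region, or CHR, is shown for ASPM and KIF23 because it is the element through which the DREAM complex keeps mitotic genes silent in resting cells and a MYB complex turns them on in G2. It was searched as TTTGAA on both strands and was in the windows of 39 of 56 members of the list and 18.2% of all genes. CCAAT, which often lies upstream of it, was in 47 of 56 and 39.7% of all genes. Capitals mark the CHR, and in ASPM it lies on the opposite strand.
ASPM, chr1:197146742-197146817, - strand: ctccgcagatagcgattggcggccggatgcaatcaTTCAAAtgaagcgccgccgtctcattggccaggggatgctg
KIF23, chr15:69414259-69414334, + strand: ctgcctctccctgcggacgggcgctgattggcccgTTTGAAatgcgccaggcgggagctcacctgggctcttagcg

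The DNA replication list was higher in the LV-CON pair, where 51 of 57 genes were higher and the median was 0.15, and near 0 in the LV-TOX3 pair, where 32 were higher and the median was 0.01. In both pairs 28 were higher (49.1%, against 34.3% over all genes), and 2 were lower in both (3.51%, against 27.5%). None was called at the wider thresholds. The origin licensing factor CDC6 was at 4.47 and 7.03 RPKM in the LV-CON pair and at 5.14 and 5.41 RPKM in the LV-TOX3 pair. Whether this differed between the viruses was not tested, since each pair holds 1 library a side.

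Genes that make and process RNA were slightly higher in both pairs. Over all genes, 34.3% were higher in both pairs and 3.69% were called higher at the wider thresholds. Among the SR splicing factors and their kinases 23 of 36 were higher in both pairs (63.9%) and 3 lower in both, and 3 were called higher (8.33%). SRSF2, which commits splice sites and also controls its own transcript, was at 32.3 and 41.9 RPKM in the LV-CON pair and at 31.9 and 45.4 RPKM in the LV-TOX3 pair. SRSF7 was at 27.1 and 35.3 RPKM and at 28.9 and 34.6 RPKM, and SRSF3 at 35.3 and 44.05 RPKM and at 31.7 and 39.0 RPKM. In each of these 3 the numbers did not overlap. The core spliceosome had 35 of 55 genes higher in both pairs (63.6%) and 1 called, the helicase AQR (1.82%, below the share over all genes). Ribosome biogenesis had 30 of 53 higher in both pairs (56.6%) and 3 called (5.66%). Among them was NOP56, a core protein of box C/D snoRNPs, at 14.9 and 20.5 RPKM and at 15.9 and 18.9 RPKM.

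The cytosolic aminoacyl-tRNA synthetases had 13 of 20 genes higher in both pairs and the heat shock proteins and chaperones 12 of 21, with none called in either list. In the proteasome 19 of 36 were higher in both pairs and in the mitochondrial ribosome 29 of 73, again with none called, and in the nuclear genes of the respiratory chain 33 of 69, with 2 called higher. Over all genes 34.3% were higher in both pairs and 3.69% called higher, so the share of the mitochondrial ribosome (39.7%) and that of calls in the respiratory chain (2.9%) were near or below the background. The cytosolic ribosomal proteins leaned the other way by a small amount. Of the large subunit 26 of 47 and of the small subunit 14 of 31 were lower in both pairs (27.5% over all genes). The medians lay between -0.03 and -0.09, and none was called. The remaining 26 lists with at least 5 members tested held 947 members, of which 22 were called higher and 33 lower (2.32% and 3.48%, against 3.69% and 3.36% over all genes), with medians from -0.27 to 0.13 in the LV-CON pair and from -0.27 to 0.10 in the LV-TOX3 pair.

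**Figure D4:**
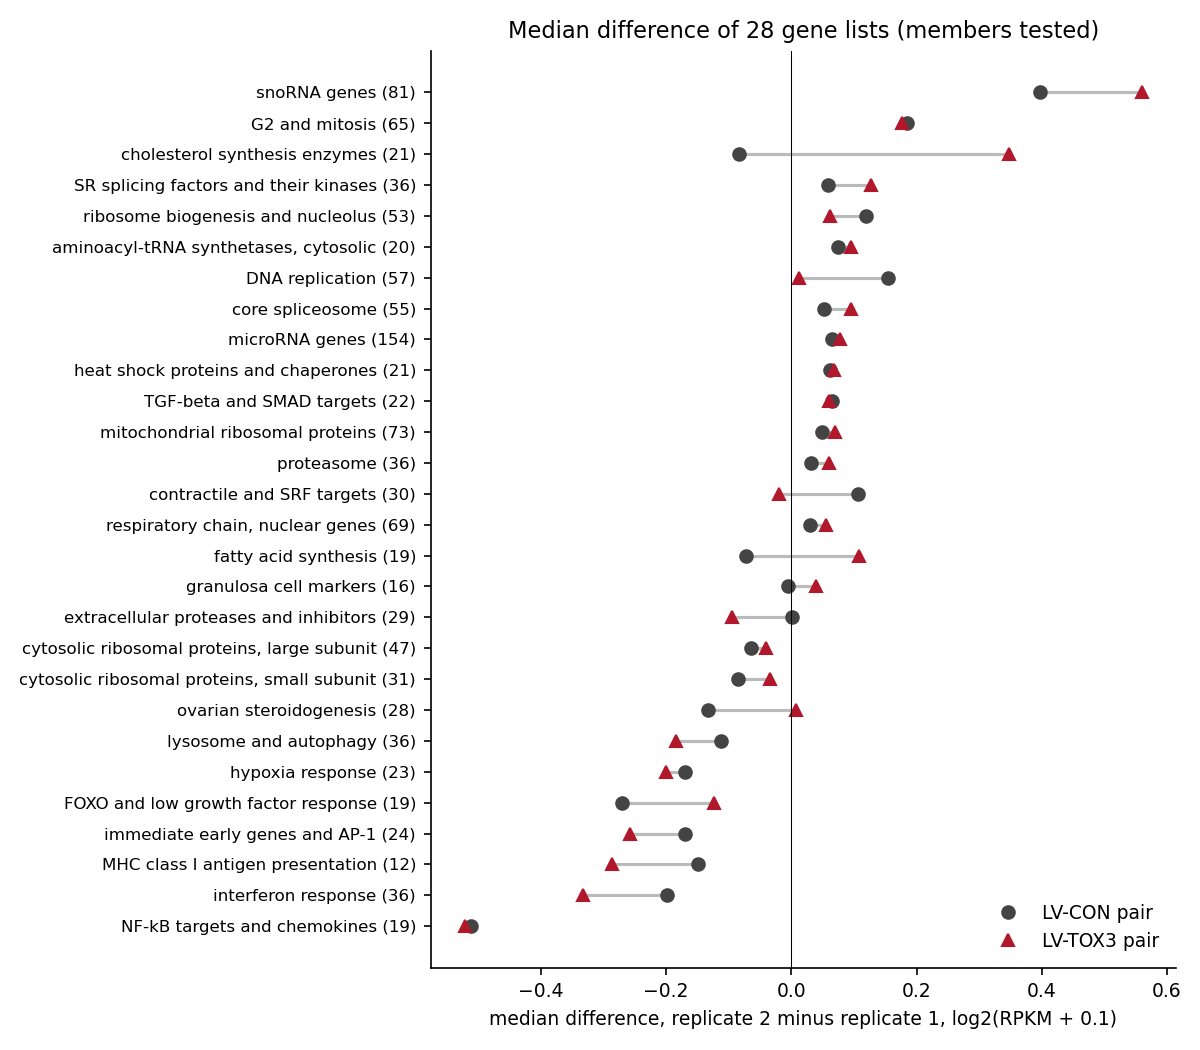
Median difference, replicate 2 minus replicate 1 on log2(RPKM + 0.1), of 28 gene lists in the LV-CON pair (circles) and the LV-TOX3 pair (triangles), with the members tested in brackets. The NF-κB list stands lowest at -0.51 and -0.52; the cholesterol synthesis enzymes have the pairs on opposite sides of 0, at -0.08 and 0.35; the snoRNA genes stand highest at 0.40 and 0.56 but are at or below 0 once loci under 10 reads are left out.

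Among single genes, the clearest of those higher in number 2 was MEGF6, a secreted protein with many EGF-like repeats, at chr1:3487951-3611508. It was at 15.1 RPKM in LV-CON replicate 1, 32.3 in LV-CON replicate 2, 17.7 in LV-TOX3 replicate 1 and 37.6 in LV-TOX3 replicate 2, from 1885 to 4347 reads. The pair differences were 1.09 and 1.08, and the fitted difference 1.09 ± 0.12 (limma adjusted p = 0.171, 0.0317 with a term for the virus, 0.0207 by limma-voom). SMPD3, the neutral sphingomyelinase that releases ceramide at the plasma membrane, was at 15.3 and 29.1 RPKM and at 10.6 and 30.6 RPKM, 2.3-fold higher in number 2 on the means. NPPB, the precursor of B-type natriuretic peptide and a gene of stretched cardiac muscle, was at 5.68 and 12.4 RPKM in the LV-CON pair and at 1.82 and 13.7 RPKM in the LV-TOX3 pair, on 11 to 78 reads, and its pair differences of 1.12 and 2.85 were the most unequal among the leading protein-coding genes.

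UPK3B, a uroplakin that mesothelial cells also make, was at 5.74 and 9.89 RPKM and at 6.24 and 17.8 RPKM. The kinase NUAK2, a member of the AMPK family and a target of YAP, was at 7.76 and 12.6 RPKM and at 7.09 and 13.7 RPKM, and RRAD, a small GTPase of the RGK family, at 13.1 and 20.9 RPKM and at 12.6 and 20.3 RPKM. For all these genes both libraries of number 2 lay above both of number 1. Contractile genes, many of them targets of SRF, had 12 of 30 members higher in both pairs and 4 lower in both (34.3% and 27.5% over all genes), and 2 were called higher and 1 lower, shares of 6.67% and 3.33% against 3.69% and 3.36% over all genes. CNN1, or calponin, was at 23.8 and 37.6 RPKM in the LV-CON pair and at 16.6 and 35.4 RPKM in the LV-TOX3 pair, and MYL6, a myosin light chain, at 33.3 and 43.0 RPKM and at 29.8 and 40.6 RPKM. ACTA2, smooth muscle actin, was lower, at 2.82 and 2.24 RPKM and at 2.91 and 2.03 RPKM. RGS4, which shortens G protein signals, was lower too, at 28.6 and 18.7 RPKM and at 28.02 and 17.6 RPKM. FAM102A and the microRNA host transcript MIR22HG were higher, MIR22HG at 19.1 and 28.2 RPKM and at 19.0 and 30.6 RPKM.

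Genes of the granulosa cell and of steroid synthesis are those in which the study was interested. CYP19A1 encodes aromatase, which turns androgens into estrogens, and lies on chromosome 15 at 51208057-51338601 (GRCh38). It was at 7.08 RPKM in LV-CON replicate 1, 4.25 in LV-CON replicate 2, 13.8 in LV-TOX3 replicate 1 and 7.37 in LV-TOX3 replicate 2. Within each virus the library of number 2 was lower, with log2 differences of -0.72 and -0.89, and within each number the LV-TOX3 library was higher, with log2 differences of 0.95 and 0.78. The numbers overlapped, since LV-TOX3 replicate 2 stood above LV-CON replicate 1. The fitted difference of the number was -0.81 ± 0.39 (limma adjusted p = 0.598, 0.0888 with a term for the virus) and that of the virus 0.87 ± 0.37.

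FSHR, the receptor for follicle-stimulating hormone, differed little by number, at 5.15 and 5.95 RPKM in the LV-CON pair and at 9.62 and 10.0 RPKM in the LV-TOX3 pair. The growth factor BMP6 was at 1.24 and 1.09 RPKM and at 2.66 and 2.61 RPKM. In both genes the libraries sorted by virus and not by number. HSD3B1, a 3β-hydroxysteroid dehydrogenase that makes progesterone from pregnenolone, was at 4.22 and 6.56 RPKM and at 3.41 and 9.51 RPKM, higher in number 2 in both pairs (log2 difference 1.04, limma adjusted p = 0.297). Its close paralog HSD3B2 was at 0.892 and 0.647 RPKM and at 1.06 and 1.07 RPKM, and reads could be split between the copies in the counting. HSD17B1, which completes estradiol synthesis, was below the filter, at 0.319 and 0.277 RPKM and at 0.365 and 0.550 RPKM, on 28 to 51 reads. STAR, the carrier of cholesterol into mitochondria, was at 5.91 and 4.18 RPKM and at 4.74 and 3.92 RPKM.

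Over the 28 tested members of the ovarian steroidogenesis list, 6 were higher in both pairs (21.4%) and 9 lower in both (32.1%), with medians of -0.13 and 0.01. Over all genes these shares were 34.3% and 27.5%. Of 16 tested granulosa markers 6 were higher (37.5%) and 5 lower (31.25%) in both pairs, near the shares over all genes. The 2 filament proteins used to describe granulosa cells went opposite ways: VIM, or vimentin, was at 307 and 253 RPKM in the LV-CON pair and at 323 and 224 RPKM in the LV-TOX3 pair, and KRT18, a keratin, at 469 and 573 RPKM and at 472 and 622 RPKM. The paired keratin KRT8 was at 10.7 and 11.7 RPKM and at 10.0 and 10.8 RPKM. AMH, the hormone of growing follicles, was at 4.397 and 5.02 RPKM and at 4.62 and 5.33 RPKM.

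In cholesterol synthesis the pairs parted. The pathway is controlled as a unit by SREBP2, which is released when membranes run short of sterol. All 21 enzymes were higher in LV-TOX3 replicate 2 than in LV-TOX3 replicate 1, with a median of 0.35, whereas in the LV-CON pair 16 were lower and 5 higher, with a median of -0.08. HMGCS1, an enzyme of the first steps of the pathway, was at 95.9 and 94.9 RPKM in the LV-CON pair and at 81.7 and 119 RPKM in the LV-TOX3 pair. LV-TOX3 replicate 2 was the highest of the 4 libraries and LV-TOX3 replicate 1 the lowest. The 5 enzymes higher in both pairs were ACAT2, MVK, GGPS1, CYP51A1 and TM7SF2 (23.8%, against 34.3% over all genes). Of these, MVK, at 6.47 and 7.93 RPKM and at 5.88 and 7.68 RPKM, and CYP51A1 passed the wider thresholds. They made up 9.52% of the list, against 3.69% called higher over all genes. With a pseudocount of 1 the fitted difference of both genes fell under the limit of 0.3. The fatty acid synthesis list had medians of -0.07 and 0.11. Its desaturase FADS1 was lower in both pairs, at 56.4 and 40.2 RPKM and at 50.4 and 46.6 RPKM.

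**Figure D5:**
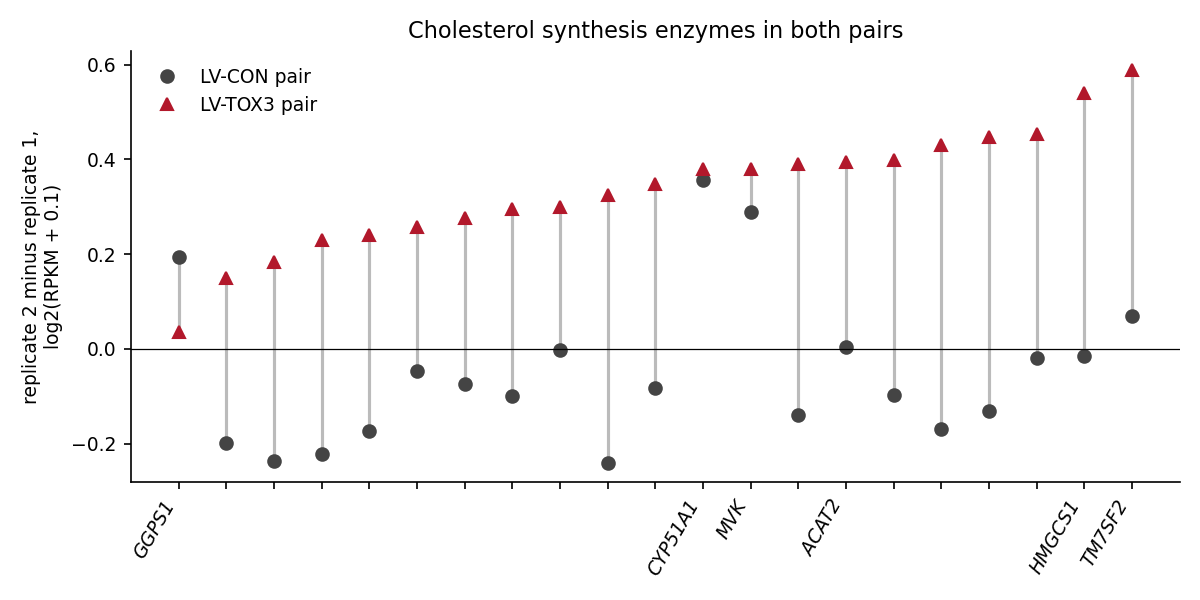
Difference between replicate 2 and replicate 1 on log2(RPKM + 0.1) for the 21 cholesterol synthesis enzymes, in the LV-CON pair (circles) and the LV-TOX3 pair (triangles), joined by grey lines and ordered by the LV-TOX3 pair, with the enzymes named in the text labelled. All triangles lie above 0 and 16 of the circles below it. MVK, at 0.29 and 0.38, and CYP51A1 are among the enzymes with both points above 0.

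Small RNA loci had the largest fold differences and the fewest reads. Of 81 snoRNA genes tested, 19 were called higher and 5 lower at the wider thresholds, and of 154 loci named as microRNA genes, 29 and 11. Over all genes 3.69% were called higher and 3.36% lower. The median of the snoRNA genes was 0.40 in the LV-CON pair and 0.56 in the LV-TOX3 pair, but -0.01 and -0.13 among those with a mean of at least 10 reads. MIR25 was at 2.68 and 13.999 RPKM in the LV-CON pair and at 3.42 and 13.1 RPKM in the LV-TOX3 pair, which is 4, 21, 5 and 18 reads (limma adjusted p = 0.125, 0.0317 with a term for the virus, 0.235 by limma-voom). Of the microRNA loci 122 of 138 by annotation had under 10 reads a library, and such reads need not come from the mature microRNA. The paired lncRNAs AC245041.1 and AC245041.2 on chromosome 10 rested on more reads, AC245041.2 at 3.88 and 6.95 RPKM and at 3.31 and 7.69 RPKM on 142 to 311 reads.

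Short genes were more often among those with a shared difference of 0.5. Among the 12148 genes of at least 1 RPKM, the median difference over 5 classes of gene length with equal numbers of genes was at most 0.03 in size in the LV-CON pair and at most 0.04 in the LV-TOX3 pair, but the shortest class, of 53 to 2258 bases, had 5.76% of its genes in the higher set and 3.21% in the lower, and the longest class 0.0412% and 0.453%. Over 5 classes of GC content the LV-CON pair ran from -0.03 in the poorest to 0.05 in the richest, and the LV-TOX3 pair from 0.06 in the poorest through 0.00 to 0.03 in the richest, so that the pairs did not run in parallel. Medians by chromosome lay between -0.03 and 0.06 in the LV-CON pair and between -0.0018 and 0.04 in the LV-TOX3 pair over 23 chromosomes.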

How the data were processed

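RNA of 4 KGN libraries was sequenced by the authors, who per their methods filtered reads with SOAPnuke, aligned them with HISAT2 to hg38 and estimated expression with RSEM. Their versions are not given in the sources used. The deposited values are RPKM per gene, 1 column a library, and no per-sample column was left unused (0). Their methods name limma-voom for the tests and ComBat for batch effects, which the paper mentions for the sequencing, without naming the batches. The sources do not say whether the deposited RPKM values were adjusted for batch. In 29087 of the 29088 genes above 0 they were whole reads scaled by gene and by library. An adjustment of the RPKM values gene by gene would not keep that form.

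Genes averaging 0.5 RPKM or more were tested on log2(RPKM + 0.1) with limma 3.58.1 (R 4.3.3; lmFit, eBayes with trend), number 2 against number 1, 2 libraries a side and 2 residual degrees of freedom, two-sided, with Benjamini-Hochberg adjustment over all genes tested. An exact permutation test of 2 against 2 libraries cannot go below p = 0.333 and was not used. Each pair difference has 1 library a side and no test. Whole reads were recovered from the RPKM values of 29087 of the 29088 genes above 0 (relative tolerance 1e-11) and used for limma-voom. Of the gene IDs, 33498 were found in GENCODE release 44, from which gene types and positions on GRCh38 came; 382 were not, SOD2 among them. Promoter windows of 300 bases came from RefSeq (GRCh38.p14); a gene with several windows counted once, if any held the motif. The main fit was also run on simulated data with known changes, drawn at the mean levels and fitted spread of these data.

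The genes and lists were chosen with earlier results of these data known. The naming rule took the 15 genes a side with the largest shared difference at a mean of at least 5 RPKM and the 10 a side with the smallest p. It also took up to 6 members of each list with the smallest p at a mean of at least 1 RPKM, up to 6 genes with opposite differences, and the genes the paper names. The text gives only part of these. Of the leading genes it leaves out SNRPGP15, RNA5SP82, PLAC9P1, AC055811.4, AC020916.1 and MIR590, all higher, and MIR221, lower. ISG15, JUN, MYC, ATF3, NFKBIA, KRT8, FOXL2, CXCL3, GGPS1, SLC6A6, SRF, AC245041.1, MT-RNR1, MT-RNR2 and PDGFB fall outside this rule and were chosen after their values were seen. Alternatives were the pseudocount, filters, scalings, a term for the virus, each library left out and limma-voom; a filter of at least 10 recovered reads was added to the tests after seeing the data.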

Additional observations from a re-analysis of the deposited data

Results flagged for a closer look

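Given here are the described lists of at least 10 tested members whose medians lay on opposite sides of 0 in the LV-CON pair and the LV-TOX3 pair, each by at least 0.05, and the 6 genes with the largest opposite differences, ranked by the smaller of their pair differences in size. With 1 library a side in each pair the difference between the pairs was not tested. For the cholesterol synthesis enzymes the median of the LV-TOX3 pair exceeded that of the LV-CON pair by 0.43 (0.35 against -0.08, 21 genes), and for fatty acid synthesis by 0.18 (0.11 against -0.07, 19 genes).

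Among single genes of at least 5 RPKM, the first by this rank was FP236383.3, a noncoding transcript on chromosome 21, at 20.8 and 44.3 RPKM in the LV-CON pair and 143 and 57.1 RPKM in the LV-TOX3 pair, so that the LV-TOX3 pair minus the LV-CON pair was -2.41. LV-TOX3 replicate 1 alone stood high. The same quantity was 1.94 for SNORD101, 2.83 for MIRLET7D, 1.61 for AC004967.1, -1.39 for RN7SL2 and 1.23 for BNC2-AS1. These 5 rested on 3 to 99 reads a library.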

How the results depend on the processing

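The count of genes past an adjusted p for the number was 0 and became 7 with a term for the virus, 29 by limma-voom, 803 by limma-voom with that term and 2 with a mean of at least 10 recovered reads; leaving out 1 library gave 0 to 0. The count at the wider thresholds was 999 (523 higher, 476 lower) and 1610 (847 and 763) with no filter on low values, and 836 to 1087 (432 to 506 and 340 to 589) without 1 library. For LV-TOX3 against LV-CON, 1 gene past an adjusted p became 0 with no filter, 0 without any 1 of the libraries and 614 by limma-voom with number and virus in 1 model, and 698 at the wider thresholds became 1401 with no filter. The shared differences of at least 0.5, 341 higher and 263 lower, became 155 and 111 with a pseudocount of 1, 1151 and 920 with no filter, 174 and 153 at a mean of at least 1 RPKM and 155 and 163 at 10 recovered reads. The causes were not tested beyond the number of genes each filter leaves. Leaving out 1 library in turn gave -0.31 to 0.57 for FSHR, -0.69 to 0.50 for BMP6, -0.52 to 0.13 for HSD3B2 and -0.022 to 0.57 for 1 SNORD19 locus; a fit of 3 libraries assumes that the lone library varies like the others. The snoRNA medians turned from 0.40 and 0.56 to -0.0081 and -0.13 at 10 recovered reads. No other direction among the 191 genes that the naming rule took turned under the alternatives run. No paired analysis was possible with the replicate number forming the pairs, because that number is itself the factor compared. The libraries do pair by virus, and the fit with a term for the virus is the analysis paired in that way. It was run with 1 residual degree of freedom and gave the 7 genes above. The fit without that term was therefore a choice and was not forced by the design.

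Both the 2 libraries a side and, for loci under 10 reads, the depth limit the precision. The p-values rest on a spread shared across genes, which without a term for the virus includes the difference between LV-TOX3 and LV-CON. What distinguishes the numbers, a culture, a day, an extraction or chance, cannot be told apart here.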
